A study of Mus musculus with 44 samples.

Results

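This is an account of 38 genes that encode histone lysine methylases and demethylases other than the Kdm5 family, read in RNA sequencing of mouse dorsal hippocampus. The genes were chosen by name, as the writers and erasers of methyl groups on histone H3 and on lysine 20 of histone H4, and all 38 were found among the 27179 genes counted in each library. They comprise 23 methylase genes, with Setd5, a SET domain protein, placed beside the H3K4 methylases, and 15 demethylase genes. The lowest count of any of them in any library was 205, and all 38 passed the filter on low counts in all 16 comparisons.

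The study compared wild-type (WT) mice with Kdm5b ΔARID/ΔARID mice (mutants), whose deletion of exons 2 to 4 removes the ARID domain and part of the JmjN domain of KDM5B, an H3K4 demethylase. Mice of both genotypes were C57BL/6J x 129S2/Sv F2 animals aged 7 to 8 weeks, and each library came from 1 mouse. Naive mice (0 h) were home cage controls, and the others were taken 1 h or 3 h after contextual fear conditioning with 3 foot shocks of 0.7 mA. No group was handled or placed in the chamber without shocks, so effects of handling, the chamber and the shocks cannot be told apart. Each of the 6 groups of genotype and time held 6 libraries, 3 labelled male and 3 labelled female. The allele is constitutive, so no cell type is singled out, and in bulk tissue fewer cells of a type and less RNA per cell cannot be told apart.

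Lysine methylation of histones is written by SET domain enzymes (and by Dot1l, which lacks one) and erased by amine oxidases such as Kdm1a or by Jumonji C enzymes such as the Kdm2 to Kdm7 families. Methylation of H3K4 marks promoters and enhancers, that of H3K36 and H3K79 accompanies transcription, and that of H3K9 and H3K27 accompanies silencing. In the hippocampus several of these enzymes, among them Kmt2a, Kmt2b, Ehmt1, Ehmt2 and Kdm6b, are known for roles in memory or in neuronal gene regulation.

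Library totals ran from 40274435 to 107000233 counts, and values are given as TMM-scaled CPM, the share of a library's counts that fall on a gene. The neuronal marker Rbfox3, the CA1 marker Wfs1 and the dentate granule cell marker Prox1 were present in every library. The summed level of 4 choroid plexus markers ran from 41.41 to 7738 CPM between libraries. Kdm5b itself averaged 88.7 ± 4.14 CPM in WT against 83.8 ± 4.83 CPM in mutants (SD, n = 18 each), a count over the whole gene that does not check the deletion. Of 6 immediate early genes used as a check of training, Fosb rose at 1 h by 1.37 on the log2 scale (adjusted p = 1.83e-07), and Fos, Egr1 and Npas4 also rose. Arc averaged 235.4 ± 96.88 CPM at 1 h against 128.2 ± 25.51 CPM at 0 h in WT, and 233.6 ± 53.32 against 127.3 ± 54.07 CPM in mutants (SD). Egr2 averaged 9.216 ± 4.484 against 3.699 ± 2.133 CPM in WT and 12.55 ± 3.649 against 3.476 ± 2.102 CPM in mutants.

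For 2 libraries the sex label and the transcripts that mark sex did not match. Xist had 51186 counts and the Y-linked genes 0 in the library labelled WT 1 h male 1, while Xist had 36 and the Y-linked genes 10239 in that labelled mutant 3 h female 2. Both also stood apart from their groups in the summed level of the 6 immediate early genes. That sum was 265.1 CPM in the library labelled WT 1 h male 1 and 396.5 to 747.8 CPM in the other 5 of its group, and 739.4 CPM in the library labelled mutant 3 h female 2 and 199.7 to 346.5 CPM in the other 5 of its group. Each held the transcripts of the sex that the other is labelled with, and its sum lay within the range of the other 5 libraries of the group that the other is labelled with. Whether the 2 were exchanged was not tested, so the genotype and time of these 2 values are only as labelled. Counts of the 38 called, and the values of those called in comparisons that hold these libraries, are given with and without them.

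All 38 genes were transcribed, most at levels above the middle of the genes tested. Levels of different genes are compared per kilobase of exonic length (CPM per kb, mean over 36 libraries). The median of the 38 was 7.694 CPM per kb, against 4.219 for 16120 tested genes with a known length. Ehmt2 (G9a, which with Ehmt1 dimethylates H3K9) was the highest, at 39.8 ± 2.14 CPM per kb (SD, n = 36), with a range of 33.04 to 43.61. Setd7, which monomethylates H3K4 and several non-histone proteins, followed at 26.0 ± 1.68, and Kdm4b, an H3K9 and H3K36 demethylase, at 20.9 ± 1.82 CPM per kb.

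At the other end, Kdm1b, an amine oxidase that demethylates H3K4, stood at 2.31 ± 0.190 CPM per kb. Suv39h2, a methylase of H3K9 in heterochromatin, was at 1.29 ± 0.233, and Ezh2, the H3K27 methylase of PRC2 that prevails in dividing cells, at 0.914 ± 0.132 CPM per kb. Its paralog Ezh1, which prevails in cells that no longer divide, was at 10.8 ± 0.887 CPM per kb, and the ranges of Ezh1 and Ezh2 did not overlap. In the order of all 38 levels, 35 of the 37 pairs of neighbours overlapped in their ranges over the 36 libraries. The exceptions were Ehmt2 above Setd7 and Kdm1b above Suv39h2.

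**Figure D1:**
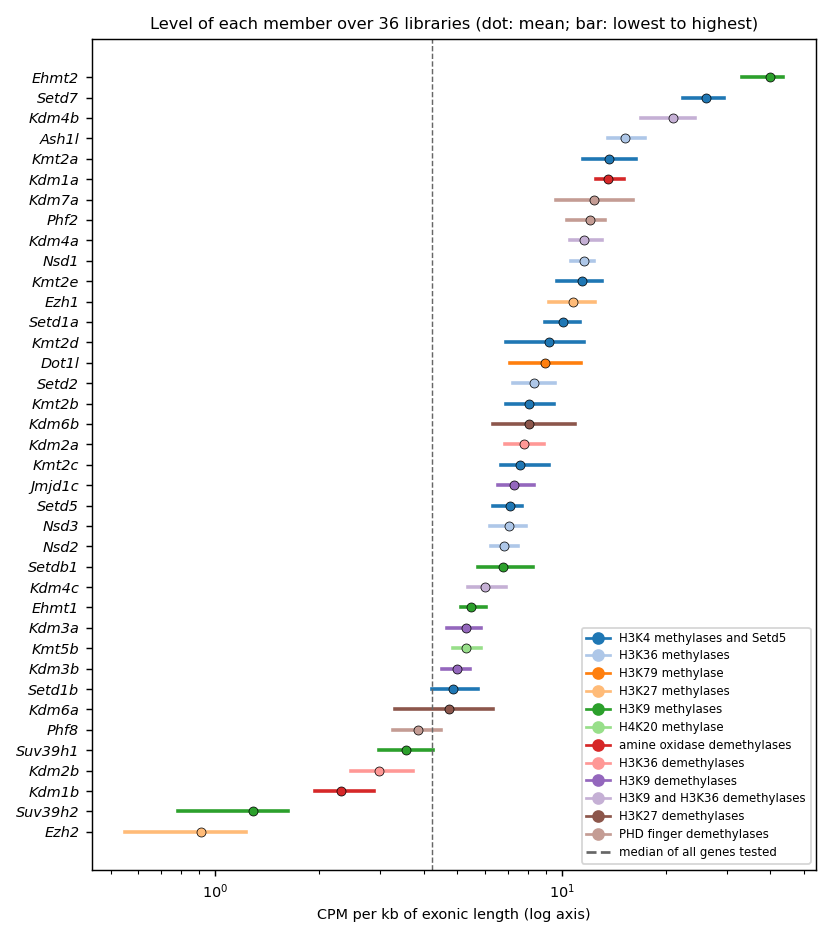
Level of each of the 38 genes in CPM per kb of exonic length on a log axis, with the mean over 36 libraries as a dot, the lowest to highest library as a bar, the role as the color and the median of all tested genes as a dashed line. Ehmt2 stands at 39.8 and Ezh2 at 0.914, and most neighbours in the order overlap.

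Spread between libraries was small for most of the genes, with a median coefficient of variation of 6.90%. It was largest for Kdm6a, an X-linked H3K27 demethylase, at 18.7%. Some of these counts could hold or lose reads of an overlapping gene, since the strand setting of the counting is not given in the sources used here. In the GENCODE M21 annotation of GRCm38, 52.3% of the exonic bases of Setd1a overlap other genes, Gm49388 among them, and 24.6% of those of Kdm3b overlap Gm26538.

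Promoter sequences are shown for the Kdm7 family, Kdm7a, Phf2 and Phf8, because each of its 3 members passed the test after conditioning at 1 h or at 3 h (below), though the call of Phf2 was lost under several alternatives. All 3 are Jumonji C demethylases with a PHD finger that binds methylated H3K4, and they act on H3K9, with Kdm7a also acting on H3K27 and Phf8 on H4K20. The windows run from 250 bases before to 50 bases after the RefSeq start (GRCm38.p6), 5′ to 3′ along the gene, at chr6:39206724-39207023 on the minus strand for Kdm7a, chr13:48870836-48871135 on the minus strand for Phf2 and chrX:151520422-151520721 on the plus strand for Phf8. Capitals mark matches on either strand to the cyclic AMP response element TGACGTCA or to its shorter form TGACG, which is contained in it.
Kdm7a: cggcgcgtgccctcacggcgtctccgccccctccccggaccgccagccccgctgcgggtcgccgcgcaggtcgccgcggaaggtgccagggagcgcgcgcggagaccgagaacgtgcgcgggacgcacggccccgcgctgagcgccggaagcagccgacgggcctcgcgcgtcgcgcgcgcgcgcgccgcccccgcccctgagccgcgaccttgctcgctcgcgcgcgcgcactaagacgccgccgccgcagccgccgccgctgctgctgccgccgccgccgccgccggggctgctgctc
Phf2: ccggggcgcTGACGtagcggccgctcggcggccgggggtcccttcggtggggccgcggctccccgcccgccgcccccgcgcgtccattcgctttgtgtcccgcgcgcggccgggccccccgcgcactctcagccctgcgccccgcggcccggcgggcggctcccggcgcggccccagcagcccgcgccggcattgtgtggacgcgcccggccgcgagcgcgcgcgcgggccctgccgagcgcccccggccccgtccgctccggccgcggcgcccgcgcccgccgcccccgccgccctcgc
Phf8: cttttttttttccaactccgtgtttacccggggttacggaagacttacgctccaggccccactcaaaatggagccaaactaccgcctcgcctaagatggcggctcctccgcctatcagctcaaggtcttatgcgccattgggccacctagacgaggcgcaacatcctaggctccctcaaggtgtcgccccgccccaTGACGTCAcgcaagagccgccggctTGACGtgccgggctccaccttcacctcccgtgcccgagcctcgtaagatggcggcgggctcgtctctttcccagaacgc

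The window of Phf8 held TGACGTCA, beginning 54 bases before the start, and another TGACG 29 bases before it. The window of Phf2 held TGACG 241 bases before the start, and in that of Kdm7a neither set of letters was found. Among 32851 RefSeq promoter windows of this length, 588 (1.79%) held TGACGTCA and 6837 (20.8%) held TGACG. RefSeq windows were at hand for 27 of the 38 genes (37 windows). Of the 37 windows, 2, those of Phf8 and Suv39h2, held TGACGTCA, and 10, from 8 genes, held TGACG. No window was at hand for Kmt2b, Kmt2e, Setd1b, Nsd1, Nsd2, Nsd3, Ash1l, Kdm2a, Kdm3b, Kdm4b or Kdm6b. The 37 windows had a median of 28 CpG dinucleotides, against 7 over all windows, and those of Kdm7a, Phf2 and Phf8 had 65, 63 and 26.

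To ask which of the genes differed from naive levels after conditioning, 1 h was compared with 0 h over both genotypes in a fit of all 36 libraries. Kdm7a, Kdm6b, Kmt2a, Setd1b, Kmt2c and Phf2 rose at 1 h, and none of the 38 genes fell. The largest rise was 25.9%, in Kdm7a. Of all 18186 genes tested, 208 passed at an adjusted p under 0.05 (1.14%) and 186 did so with a rise (1.02%), and 6 of the 38 did. At an unadjusted p under 0.05, 17 of the 38 passed, all higher at 1 h, against 12.5% of all genes. The log2 fold change was above 0 in 32 of the 38, with a median of 0.0619, against -0.0053 for all genes tested.

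Kdm7a (chr6:39136623-39206789 in GRCm38) had a lowest, median and highest level of 96.62, 105.9 and 125.8 CPM at 0 h and of 109.8, 137.8 and 161.0 CPM at 1 h (n = 12 each). The groups overlapped through the library labelled WT 1 h male 1, at 109.8 CPM, and the other 11 libraries at 1 h began at 130.5 CPM, above every naive library. The log2 fold change was 0.33 (SE 0.055, adjusted p = 0.0017), and 0.36 without the 2 libraries (adjusted p = 0.000192).

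Kdm6b (JMJD3, chr11:69398508-69413675), which removes methyl groups from H3K27, had a lowest, median and highest level of 44.14, 50.47 and 57.36 CPM at 0 h and of 51.16, 63.39 and 75.9 CPM at 1 h. The 2 times overlapped at the top of 0 h and the bottom of 1 h, where the lowest library was again the library labelled WT 1 h male 1. The rise of 23.9% (log2 fold change 0.31, SE 0.066, adjusted p = 0.0123) stood at 0.33 without the 2 libraries (adjusted p = 0.000854). Its X-linked paralog Kdm6a had a mean level of 39.8 ± 8.21 CPM at 0 h against 41.0 ± 5.49 CPM at 1 h (SD, n = 12), with a log2 fold change of 0.06 (adjusted p = 0.74), and 0.02 without the 2 libraries (adjusted p = 0.929).

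Among the 8 H3K4 methylases and Setd5, 3 rose. Kmt2a (MLL1, chr9:44803355-44881296), the founding member of the mixed lineage leukemia family, had a lowest, median and highest level of 196.0, 216.2 and 231.6 CPM at 0 h, and of 206.8, 245.7 and 273.7 CPM at 1 h. Most libraries at 1 h lay above all at 0 h, and the lowest at 1 h was the library labelled WT 1 h male 1. Its log2 fold change was 0.19 (SE 0.039, adjusted p = 0.00976), and 0.21 without the 2 libraries (adjusted p = 0.0011). Setd1b (chr5:123142193-123168629), a catalytic subunit of COMPASS, ran from 50.93 to 62.43 CPM at 0 h (median 56.75) and from 52.31 to 69.14 CPM at 1 h (median 62.88). These ranges overlapped, and the log2 fold change was 0.17 (SE 0.042, adjusted p = 0.0309), or 0.19 with the 2 libraries left out (adjusted p = 0.00106). It was no longer called in 15 of the 36 fits without a single library (adjusted p up to 0.0826 in edgeR) or with an offset for exonic length and GC content (0.0659).

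Kmt2c (MLL3, chr5:25271798-25498783), which methylates H3K4 at enhancers, ran from 135.2 to 165.6 CPM at 0 h (median 143.2) and from 149.3 to 186.3 CPM at 1 h (median 158.4), with a log2 fold change of 0.16 (SE 0.038, adjusted p = 0.0237), and 0.17 without the 2 libraries (adjusted p = 0.013). The call was lost in 7 of the 36 fits that left out a library each (adjusted p up to 0.0636 in edgeR), and the fold change was lowest, at 0.13, without WT 1 h male 3, which held the highest value. The remaining members of the group did not pass. Kmt2d, the paralog of Kmt2c, had a log2 fold change of 0.15 with a wider SE of 0.061 (adjusted p = 0.293), and Setd1a, the paralog of Setd1b, had one of -0.02 (adjusted p = 0.891).

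Of the Kdm7 family, Phf2 (chr13:48801750-48871119) also rose, from a range of 56.96 to 69.02 CPM at 0 h (median 63.17) to one of 63.28 to 73.29 CPM at 1 h (median 68.59). These ranges overlapped, and the log2 fold change was 0.12 with the 2 libraries (SE 0.030, adjusted p = 0.0385) and without them (adjusted p = 0.0375). This call was lost in 25 of the 36 fits that left out a library each (adjusted p up to 0.108 in edgeR), with the replicate block (0.0504) and with an offset for exonic length and GC content (0.152). Phf8 had a log2 fold change of 0.13 that did not pass at 1 h (SE 0.040, adjusted p = 0.109). Kdm2a, an H3K36 demethylase that binds CpG islands, had one of 0.12 (adjusted p = 0.067), and passed without the 2 libraries (0.13, adjusted p = 0.0131).

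No H3K36, H3K79, H3K27, H3K9 or H4K20 methylase passed at 1 h, and none of the amine oxidases or of the Kdm3 and Kdm4 genes did. The 3 genes of the Kdm3 group, Kdm3a, Kdm3b and Jmjd1c, each had an unadjusted p under 0.05, with log2 fold changes of 0.05 to 0.11. Suv39h2 had the lowest value of the 38, -0.14 (SE 0.110, adjusted p = 0.663). Without the 2 libraries 7 of the 38 passed at 1 h, against 2.23% of all genes tested there. Leaving out single libraries gave 3 to 7 members called, with 3 called without WT 0 h female 1, mutant 0 h female 1, WT 1 h male 3, mutant 1 h male 3 or mutant 1 h female 2. The share of all genes called in each of these fits is not given here, so this range cannot be set against it.

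**Figure D2:**
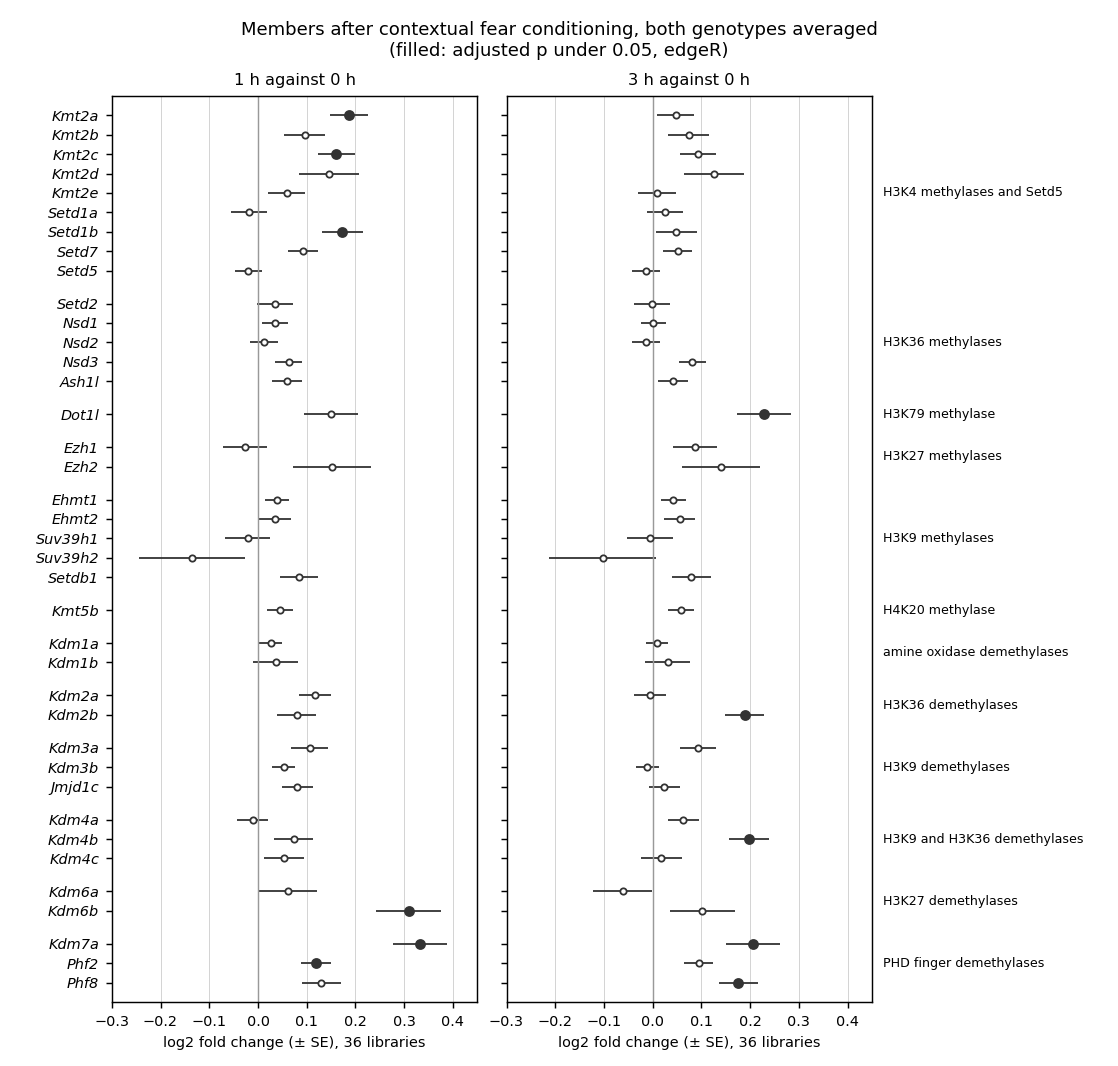
Log2 fold change with its SE for each of the 38 genes at 1 h against 0 h and at 3 h against 0 h, both genotypes averaged over 36 libraries, ordered by role, with genes at an adjusted p under 0.05 filled. At 1 h 6 genes are filled, led by Kdm7a at 0.33, and at 3 h 5 are, led by Dot1l at 0.23.

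At 3 h Dot1l, Kdm7a, Kdm4b, Kdm2b and Phf8 had risen above their levels at 0 h, and again none of the 38 genes fell. Kdm7a passed at both times, and the change from 1 h to 3 h is tested further on. Of all genes tested, 434 passed at 3 h (2.39%) and 319 with a rise (1.75%), against 5 of the 38. At an unadjusted p under 0.05, 11 of the 38 passed, all higher, against 15.8% of all genes. The log2 fold change was above 0 in 30 of the 38, with a median of 0.0497, against -0.00645 for all genes tested. The comparisons at 1 h and 3 h share the naive libraries.

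Kdm4b (chr17:56326062-56402870) had a lowest, median and highest level of 82.83, 96.9 and 103.6 CPM at 0 h and of 94.39, 111.1 and 118.9 CPM at 3 h (n = 12 each). The times overlapped through the lower libraries at 3 h, and the log2 fold change was 0.20 (SE 0.040, adjusted p = 0.00768), and 0.21 without the 2 libraries (adjusted p = 0.00565). Its paralogs Kdm4a and Kdm4c had log2 fold changes of 0.06 (adjusted p = 0.339) and 0.02 (adjusted p = 0.89).

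Kdm2b (chr5:122870665-122989823), which demethylates H3K36 and brings a Polycomb complex to CpG islands, had a lowest, median and highest level of 26.89, 29.82 and 33.34 CPM at 0 h and of 28.68, 35.15 and 40.54 CPM at 3 h. The lowest value at 3 h was that of the library labelled mutant 3 h female 2. With it, the log2 fold change was 0.19 (SE 0.040, adjusted p = 0.00898), and without the 2 libraries 0.21 (adjusted p = 0.0016). Kdm2a, its paralog, had one of -0.01 at 3 h (adjusted p = 0.961).

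Dot1l (chr10:80755206-80795461), the H3K79 methylase, ran from 61.95 to 85.23 CPM at 0 h (median 70.77) and from 72.19 to 98.93 CPM at 3 h (median 83.63). The ranges overlapped, and the 17.2% rise (log2 fold change 0.23, SE 0.055, adjusted p = 0.0212) was the largest of the 38 at this time. The fold change stood at 0.22 on the log2 scale without the 2 libraries (adjusted p = 0.0269). The level of Dot1l at 1 h, 78.8 ± 7.44 CPM (SD, n = 12), lay between those at 0 h and 3 h.

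Phf8 (chrX:151520672-151633859) ran from 30.29 to 38.41 CPM at 0 h (median 32.27) and from 31.72 to 41.70 CPM at 3 h (median 37.67), a log2 fold change of 0.18 with the 2 libraries (SE 0.040, adjusted p = 0.0148) and without them (adjusted p = 0.0134). Kdm7a, at a lowest, median and highest level of 116.3, 119.4 and 152.7 CPM at 3 h, overlapped with its values at both other times, with a log2 fold change of 0.21 against 0 h (SE 0.055, adjusted p = 0.0383), which was also 0.21 without the 2 libraries (adjusted p = 0.0216). Its call at 3 h was lost in 13 of the 36 fits that left out a library each, WT 3 h female 3 among them (0.17, the lowest of these values). Without the 2 libraries of discordant sex transcripts the number of the 38 called remained 5, against 3.42% of all genes tested.

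A correction for exonic length and GC content, chosen after seeing the data, left 3 of the 38 called at 3 h, against 1.2% of all genes. Dot1l then had a log2 fold change of 0.17 (adjusted p = 0.0605 in edgeR) and Kdm4b one of 0.16 (adjusted p = 0.0624), both lower than without the correction. The 38 genes are long, with a median exonic length of 9457 bases against 4279 for the genes tested.

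**Figure D3:**
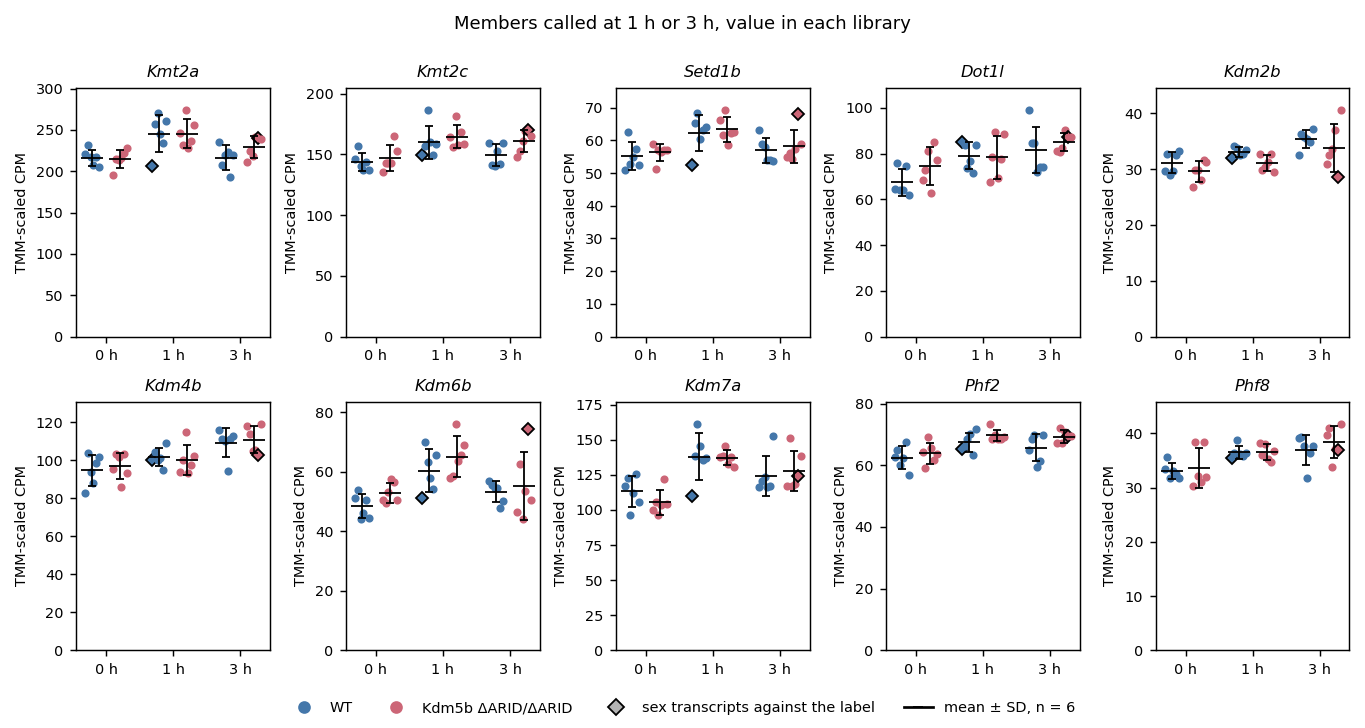
Level in TMM-scaled CPM of the 10 genes called at 1 h or 3 h, in each of 36 libraries by time and genotype, with the mean ± SD of each group of 6 as bars and the 2 libraries whose sex transcripts go against the label as diamonds. In Kdm7a and Kdm6b the diamond at 1 h is the lowest of its group, at 109.8 and 51.16 CPM.

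Between 1 h and 3 h the number of members called depended on the fit. None of the 38 passed in edgeR with all libraries, where 39 genes did (0.214% of those tested), while 10 of the 38 had an unadjusted p under 0.05 (4 higher and 6 lower at 3 h, against 10.7% of all genes), and DESeq2 called 1, Kdm2a (1.05% of all genes). With the offset for exonic length and GC content 3 were called, Kmt2a, Setd1b and Kdm2a (0.407% of all genes), and without the 2 libraries of discordant sex transcripts 4 were. In edgeR with all libraries Kdm2a had a log2 fold change of -0.12 (SE 0.033, adjusted p = 0.0944), Kmt2a of -0.14 (SE 0.039, adjusted p = 0.11) and Kdm6b of -0.21 (SE 0.066, adjusted p = 0.187). Both of those libraries belong to the groups compared here, and without them 1.7% of all genes tested were called.

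The 4 that fell without those libraries were Kdm6b by 0.28 on the log2 scale (adjusted p = 0.00567), Setd1b by 0.17 (adjusted p = 0.00434), Kmt2a by 0.17 (adjusted p = 0.0113) and Kdm2a by 0.15 (adjusted p = 0.00422). In the 11 libraries left at each time, Kdm6b averaged 63.7 ± 6.44 CPM at 1 h against 52.4 ± 5.31 CPM at 3 h (SD), and Kdm2a 119.8 ± 3.55 against 107.9 ± 5.76 CPM. Kdm2a then ran from 116.6 to 128.4 CPM at 1 h and from 98.91 to 116.3 CPM at 3 h. With all libraries its ranges were 107.1 to 128.4 and 98.91 to 123.2 CPM, which overlapped. Kdm7a, at -0.14, did not pass in that fit (adjusted p = 0.201).

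To ask whether each genotype responded on its own, times were compared within a genotype on 12 libraries. In WT mice none of the 38 passed in edgeR at 1 h, as none of all genes did (0%), and DESeq2 called 0 of the 38 (0.0222% of all genes). At an unadjusted p under 0.05, 11 of the 38 were higher at 1 h, against 5.36% of all genes. Smallest were the p-values of Kdm6b (log2 fold change 0.32, SE 0.078), Dot1l (0.23, SE 0.064) and Phf8 (0.14, SE 0.043), each at an adjusted p of 0.922. Without the library labelled WT 1 h male 1 none was called either, and 14 of the 38 had an unadjusted p under 0.05, against 6.69% of all genes. They were led by Kmt2a (0.24, SE 0.042, adjusted p = 0.0873 in edgeR), Kdm6b (0.37, SE 0.068, adjusted p = 0.11) and Kdm7a (0.34, SE 0.072, adjusted p = 0.208). Kdm6b in WT mice ran from 44.14 to 53.74 CPM at 0 h and from 51.16 to 69.89 CPM at 1 h (n = 6), groups that overlapped only through the library labelled WT 1 h male 1 (unadjusted p = 0.00433 by the exact permutation test). The other 5 libraries at 1 h began at 54.05 CPM, above all 6 at 0 h.

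In mutants Kdm7a rose at 1 h, from a lowest, median and highest level of 96.7, 103.8 and 122.0 CPM to one of 130.5, 137.8 and 145.5 CPM. No naive library reached the lowest of the 6 libraries at 1 h. The log2 fold change was 0.38 (SE 0.051, adjusted p = 0.00748 in edgeR), with the smallest p that 6 against 6 allows in the two-sided exact permutation test (0.00216). It was 1 of 54 genes called (0.312%), of which 52 were higher (0.301%), and 11 of the 38 had an unadjusted p under 0.05, all higher, against 11.1% of all genes.

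Kdm3a, an H3K9 demethylase, Kdm6b and Kdm2a also had 0 h and 1 h values that did not overlap in mutants, which makes 4 of the 38, against 1.36% of all genes. Kdm3a ran from 38.54 to 42.11 CPM at 0 h and from 43.79 to 46.69 CPM at 1 h, with a log2 fold change of 0.18 (adjusted p = 0.067 in edgeR). For Kdm6b the adjusted p was 0.0841 and for Kdm2a 0.0918. DESeq2 called 5 of the 38 in this comparison, Kmt2a, Kdm2a, Kdm3a, Kdm6b and Kdm7a, against 2% of all genes it tested.

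At 3 h against 0 h none of the 38 passed in either genotype in edgeR (0% of all genes in both). Unadjusted p-values under 0.05 were found for 7 in WT (8.23% of all genes) and 11 in mutants (8.57%), all higher at 3 h, and DESeq2 called 0 (0.526% of all genes) and 1, the latter Kdm7a (0.824%). In WT the smallest p-values were those of Dot1l (0.27, adjusted p = 0.421), Kdm2b (0.18, adjusted p = 0.421) and Kdm4b (0.21, adjusted p = 0.449). In mutants they were those of Kdm7a (0.28, adjusted p = 0.315), Kdm4b (0.19, adjusted p = 0.339) and Kmt2c (0.13, adjusted p = 0.394). With the library labelled mutant 3 h female 2 left out, none of the 38 was called in mutants, with unadjusted p-values under 0.05 for 13 (11.2% of all genes) and the smallest adjusted p for Kdm2b (0.25, adjusted p = 0.15).

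At 3 h against 1 h none passed in edgeR (0% of all genes in both genotypes) or in DESeq2 (0.387% in WT and 0.511% in mutants). At an unadjusted p under 0.05 there were 5 in WT (2 higher and 3 lower, 7.41% of all genes), led by Kmt2a, Kdm4a and Kdm2a, and 3 in mutants (8.04%), namely Kdm4b, Ezh1 and Kdm2a. Kdm2a was lower at 3 h in both genotypes, with log2 fold changes of -0.13 in WT and -0.11 in mutants. Without the libraries of discordant sex transcripts again none was called, and 6 had an unadjusted p under 0.05 in WT (8.4% of all genes) and 6 in mutants (8.99%). The smallest adjusted p was that of Setd1b in both, at 0.148 in WT (-0.19) and 0.229 in mutants (-0.17), while Kdm6b stood at -0.24 (adjusted p = 0.224) and -0.33 (adjusted p = 0.285).

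The difference between the genotypes in the response was itself tested as an interaction. None of the 38 passed in edgeR at 1 h or at 3 h (0% of all genes in both), DESeq2 called 0 in both (0.00866% and 0% of all genes), and 3 and 0 of the 38 had an unadjusted p under 0.05 (3.78% and 1.52% of all genes). The 3 at 1 h were Setdb1 (-0.22), Setd5 (-0.12) and Kdm3a (0.15), each at an adjusted p of 0.999. Estimates over the 38 ran from -0.22 to 0.15 at 1 h, with 95% intervals reaching from -0.45 to 0.35, and from -0.13 to 0.15 at 3 h, with intervals reaching from -0.36 to 0.41. For Kdm7a the difference at 1 h was 0.10 (95% interval -0.10 to 0.30), for Kdm6b -0.02 (-0.23 to 0.19) and for Kmt2a 0.01 (-0.15 to 0.16). Without the 2 libraries of discordant sex transcripts none was called, 1 of the 38 at 1 h (3.41% of all genes) and 2 at 3 h (2.17%) had an unadjusted p under 0.05, and the differences at 1 h were 0.04 for Kdm7a (SE 0.089), -0.06 for Kdm6b (SE 0.104) and -0.04 for Kmt2a (SE 0.068).

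Between the genotypes, averaged over the 3 times, Setd7 was lower in mutants and no other of the 38 passed. Setd7 (chr3:51515319-51560879) had a lowest, median and highest level of 266.1, 290.8 and 317.4 CPM in WT and of 241.3, 271.9 and 293.7 CPM in mutants (n = 18 each). The genotypes overlapped, and the fitted level was 6.61% lower in mutants. The log2 fold change was -0.10 (SE 0.025, adjusted p = 0.0365), and -0.12 without the 2 libraries (adjusted p = 0.00488). It was negative at each time, at -0.14 at 0 h, -0.08 at 1 h and -0.09 at 3 h.

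Setd7 was 1 of 214 genes called between the genotypes (1.18%), of which 65 were lower in mutants (0.357%), and 4 of the 38 had an unadjusted p under 0.05 (15.1% of all genes). Without the 2 libraries 2.58% of genes were called, and of the 38 Setd7 alone. Its call was lost in 10 of the 36 fits that left out a library each (adjusted p from 0.00922 to 0.0622), and with no filter on low counts (adjusted p = 0.0557). Beside it, the astrocyte marker Gja1 was 0.13 higher in mutants on the log2 scale (adjusted p = 0.0426), the only one of 4 astrocyte markers called. The summed astrocyte markers spanned 1288 to 1676 CPM in WT libraries against 1472 to 1704 CPM in mutant ones, and the choroid plexus sum 41.41 to 7738 against 49.16 to 3504 CPM. The median of the choroid plexus sum was lower in mutants at each time. It was 2037 CPM in WT against 183.4 CPM in mutants at 0 h, 1010 against 118.4 CPM at 1 h and 2130 against 1428 CPM at 3 h. At 0 h, where the Setd7 estimate was lowest, the summed level of 4 striatal markers did not overlap between the genotypes, at 23.84 to 28.72 CPM in WT against 29.86 to 45.09 CPM in mutants, while at 1 h and 3 h it did. Thalamic markers (3 genes) had a median sum at 0 h of 68.69 CPM for WT against 89.53 CPM for mutants, with ranges that overlapped, and none of these 7 genes was called between the genotypes in edgeR. The part of these markers in the Setd7 result was not tested.

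Next in order of p were Ezh2 and Kdm2b, which did not pass. Ezh2 spanned 3.67 to 7.31 CPM in WT libraries against 5.09 to 8.21 CPM in mutant ones, ranges that overlapped, with a log2 fold change of 0.16 (SE 0.065, adjusted p = 0.205). Kdm2b had one of -0.08 (adjusted p = 0.249). Because KDM5B removes methyl groups from H3K4, the H3K4 methylases are of interest by role: apart from Setd7, the other 7 and Setd5 had log2 fold changes from 0.01 to 0.09, and none passed.

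**Figure D4:**
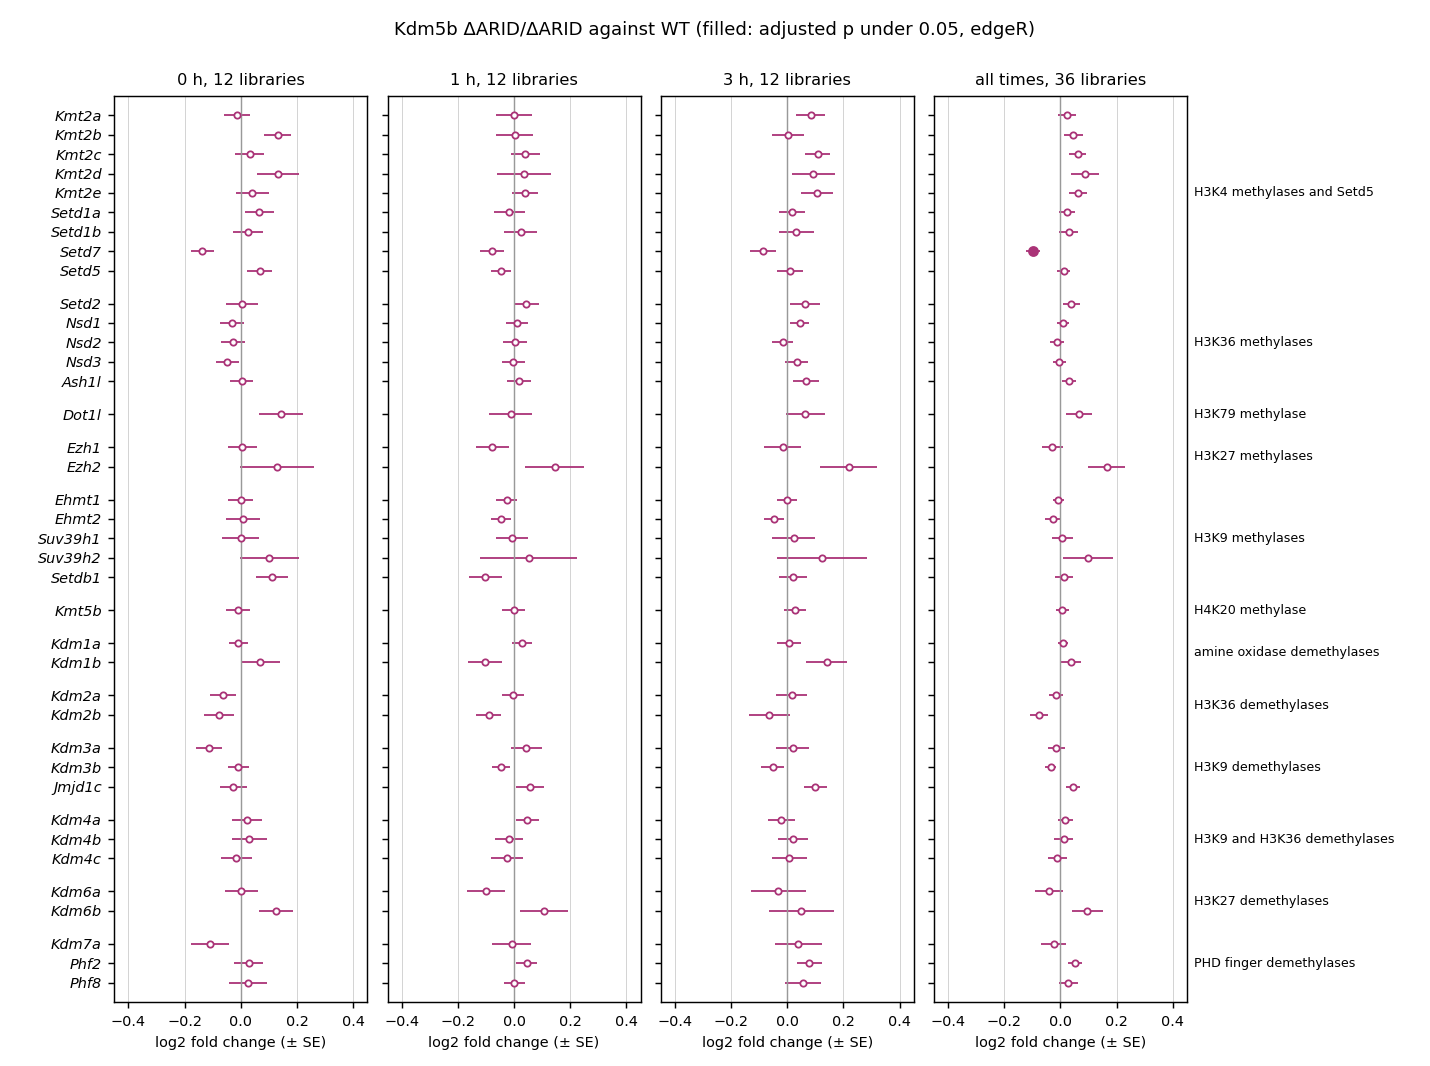
Log2 fold change of mutant against WT with its SE for each of the 38 genes at 0 h, 1 h and 3 h (12 libraries each) and over all times (36 libraries), ordered by role, with genes at an adjusted p under 0.05 filled. Setd7 is below 0 in every panel and is filled over all times, at -0.10.

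At single times no member differed between the genotypes in edgeR, where 0% of all genes passed at 0 h and at 1 h and 0.0115% at 3 h, and DESeq2 called none of the 38 at any time, against 0.0787%, 0.494% and 0.246% of all genes at 0 h, 1 h and 3 h. Members with an unadjusted p under 0.05 numbered 3 at 0 h (6.15% of all genes), 0 at 1 h (8.61%) and 2 at 3 h (6.36%). The 3 at 0 h were Setd7 (-0.14, adjusted p = 0.71), Kmt2b (0.13, adjusted p = 0.76) and Kdm3a (-0.11, adjusted p = 0.778), and the 2 at 3 h were Kmt2c (0.11) and Jmjd1c (0.10), each at an adjusted p of 0.766. At 1 h the smallest p-values were those of Kdm2b (-0.09, adjusted p = 0.585), Setd7 (adjusted p = 0.646) and Setdb1 (-0.10, adjusted p = 0.661). Leaving out the discordant libraries gave no call at either time and an unadjusted p under 0.05 for 3 members at 1 h (10.3% of all genes) and 3 at 3 h (8.06%). The smallest adjusted p was then that of Setd7 at 1 h (-0.11, adjusted p = 0.275) and of Jmjd1c at 3 h (0.11, adjusted p = 0.582).

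Of the 3 X-linked members, Kdm6a was higher in libraries labelled female and Phf8 and Suv39h1 were not called. Kdm6a (chrX:18162575-18279936) is known to escape X inactivation. It was at 45.6 ± 4.66 CPM in 18 libraries labelled female and 33.6 ± 3.93 CPM in 18 labelled male (SD), a log2 fold change of 0.44 (SE 0.050, adjusted p = 8.62e-07). Groups overlapped only through the 2 libraries of discordant sex transcripts, at 33.35 CPM in the library labelled mutant 3 h female 2 and 46.09 CPM in the library labelled WT 1 h male 1. Without them the 17 labelled female ran from 41.09 to 53.21 CPM and the 17 labelled male from 27.73 to 37.20 CPM (adjusted p = 1.8e-10).

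Kdm6a was the only one of the 38 called between the sexes, against 0.0825% of all genes, or 0.082% without the 2 libraries. At an unadjusted p under 0.05 there were 2 of the 38, with Kdm1a as the other (5.08% of all genes). Phf8 was at 35.3 ± 2.82 CPM in libraries labelled female and 36.4 ± 3.08 CPM in those labelled male, and Suv39h1, an H3K9 methylase of heterochromatin, at 18.9 ± 1.39 and 18.5 ± 1.35 CPM (SD, n = 18 each).

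**Figure D5:**
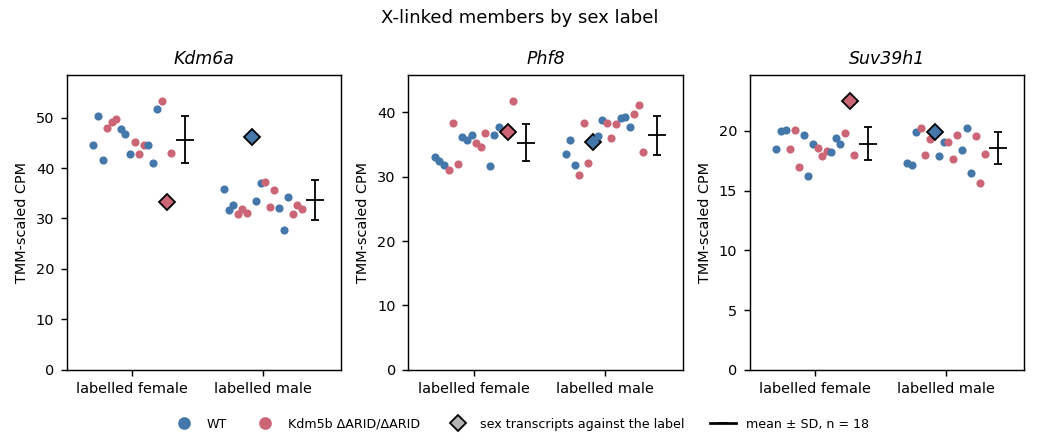
Level in TMM-scaled CPM of Kdm6a, Phf8 and Suv39h1 in each of 36 libraries by labelled sex, colored by genotype, with the mean ± SD of 18 libraries as bars and the 2 libraries of discordant sex transcripts as diamonds. For Kdm6a each diamond lies among the libraries of the other label, at 33.35 and 46.09 CPM.

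A further 65 genes, subunits of the complexes these enzymes work in and other lysine methylases and demethylases, were read in the same fits. At 1 h 3 of the 65 rose and none fell, against 1.14% of all genes called. They were Prdm2, an H3K9 methylase gene (log2 fold change 0.22, adjusted p = 0.0189), Kmt5a, the H4K20 monomethylase (0.13, adjusted p = 0.0385), and Aebp2, a subunit of PRC2 (0.10, adjusted p = 0.0385). At 3 h 1 of the 65, Prdm15, rose (0.13, adjusted p = 0.0335), against 2.39%. From 1 h to 3 h only Bcorl1, a corepressor of the complex that holds Kdm2b, fell, by 0.24 (adjusted p = 0.0295, against 0.214% of all genes called). Between the genotypes 1 of the 65, Epop, a PRC2 cofactor, was lower in mutants by 0.28 on the log2 scale (adjusted p = 0.035), against 1.18%. None of the partners of the COMPASS complexes passed in any of these 4 comparisons.

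Markers of cell types and of other regions were read beside the rises after conditioning. The median sum of 3 CA1 markers at 0 h, 1 h and 3 h was 607.2, 684.6 and 662.6 CPM in WT. In mutants it was 583.7, 645.4 and 598.6 CPM. That of 3 pan neuronal markers was lower after conditioning, at 3633, 3369 and 3415 CPM in WT and 3468, 3366 and 3409 CPM in mutants. The striatal median was 27.69, 25.99 and 27.04 CPM in WT and 34.45, 26.47 and 29.32 CPM in mutants. None of 3 dentate granule cell markers was called at 1 h or 3 h, with sums of 220.3 to 472.7 CPM at 0 h, 277.5 to 381.8 CPM at 1 h and 289.8 to 471.5 CPM at 3 h. The median of that sum was 287, 345.2 and 354.9 CPM at 0 h, 1 h and 3 h in WT and 307.5, 347.4 and 367.7 CPM in mutants, higher after conditioning in both. At 3 h the log2 fold changes of these markers were 0.46 for Dsp (SE 0.156, adjusted p = 0.116), 0.22 for Dock10 (SE 0.067, adjusted p = 0.0666) and 0.19 for Prox1 (SE 0.092, adjusted p = 0.323), of the size of those of the members called at that time or larger. Of 3 neocortical markers Rorb fell at 3 h by 0.31 (adjusted p = 0.00768), while the sum of the 3 ran from 74.81 to 96.00 CPM at 0 h in mutants and from 78.35 to 95.44 CPM in WT, and at 3 h from 72.48 to 91.52 and from 67.15 to 98.19 CPM. Their part in the rises was not tested.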

How the data were processed

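RNA from dorsal hippocampus was poly-A selected and sequenced as paired reads of 150 bases. The authors aligned the reads to mm10 with STAR 2.7.8a and counted them per gene with featureCounts 2.0.1, per the submitters' processing notes. What was deposited is 1 file of raw counts per library, with no normalization. The annotation, the strand setting and the treatment of multi-mapping reads are not given in the sources used here. Of 27179 gene identifiers per file, 25275 were named from RefSeq, and the rest held 1.28% of the counts. The 8 samples of an earlier cohort are not analysed here.

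Groups were taken from the labels, with each library 1 mouse. Counts were tested with edgeR 4.0.16 (limma 3.58.1, R 4.3.3) by the robust quasi-likelihood F-test, with TMM scaling, a filter at a minimum count of 10 (filterByExpr) and sex as labelled as a covariate. Comparisons of 2 groups used their 12 libraries, interactions 24, and averages over groups all 36. The p-values were adjusted over all genes tested (Benjamini-Hochberg), and genes at an adjusted p under 0.05 were called. Values of 6 against 6 were also compared by the two-sided exact permutation test over 924 arrangements, on log2 CPM with a prior count of 2, without adjustment. Exonic lengths, coordinates and overlaps came from GENCODE M21 on GRCm38, and promoter sequences from RefSeq. The fits were tested on simulated data before use.

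A gene is named with its values in a comparison where it was called or was among the 3 with the smallest p, and further by level (the 3 highest and lowest) or by X linkage. Paralogs of called genes (Kmt2d, Setd1a, Kdm6a, Kdm4a, Kdm4c, Kdm2a), genes whose groups did not overlap, the lowest fold change (Suv39h2), Kdm3a, Kdm3b and Jmjd1c at 1 h and leading genes without the 2 libraries were named after their values were seen. The 38 genes, the partner list and the marker lists were chosen with earlier results of these data known. Alternatives were DESeq2 1.42.0, RLE factors, no sex covariate, all 36 libraries in each fit, no filter on low counts or at least 10 counts per library, a replicate block, each library left out in turn, and the 2 libraries of discordant sex transcripts left out, and, chosen after seeing the data, an offset for exonic length and GC content. Library totals ran from 40274435 to 107000233 counts, and the precision of a value also depends on the spread between mice.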

Additional observations from a re-analysis of the deposited data

Results flagged for a closer look

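For each of the 12 members called in any comparison, the 6 libraries of each group were checked for a value far from the rest, as the gap to the nearest library divided by the range of the group, and a ratio above Dixon's 95% critical value for 6 values was taken as far. This was met in 8 of 72 sets of 6 values, where 1 in 20 by chance gives 3.6. Kdm7a stood high in WT 3 h female 3 (152.7 CPM against 116.3 to 123.1 CPM in the other 5, ratio 0.813) and in mutant 0 h female 2 (122.0 against 96.7 to 105.9 CPM, ratio 0.636). Kdm4b was low in WT 3 h female 1, at 94.39 CPM against 110.2 to 115.9 CPM (ratio 0.735). Both Kmt2c (186.3 against 149.3 to 160.2 CPM, ratio 0.705) and Phf8 (38.74 against 35.44 to 36.41 CPM, ratio 0.706) were high in WT 1 h male 3. Phf2 was high in mutant 1 h male 1, at 73.29 CPM against 68.51 to 69.92 CPM (ratio 0.705). Setd1b was low in mutant 0 h male 2, at 51.32 CPM against 56.54 to 58.84 CPM (ratio 0.694), and high in the library labelled mutant 3 h female 2, at 67.99 CPM against 54.19 to 58.86 CPM (ratio 0.662).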

How the results depend on the processing

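The number of the 38 genes called kept within 1.5 times of its reported value in all 16 comparisons with RLE factors and with 10 counts in every library, and no named gene reversed its direction in any alternative. The exact permutation tests of 27 named values stayed on their side of the threshold with a prior count of 0.5. DESeq2 called 5 in mutants at 1 h (1 in edgeR), 1 in mutants at 3 h (0 in edgeR) and 1 at 3 h against 1 h (0 in edgeR). Without the sex covariate 2 were called in mutants at 1 h, with Kdm3a added (adjusted p = 0.0423). The share of all genes called without that covariate is not given here. With the offset for length and GC content, chosen after seeing the data, 2 were called in mutants at 1 h, 3 at 3 h against 0 h and 3 at 3 h against 1 h, and Setd1b (adjusted p = 0.0659) and Phf2 (0.152) were lost at 1 h. The shares of all genes called with the offset at 3 h are given above, and that in mutants at 1 h is not given. With no filter 0 were called between the genotypes. Without the 2 libraries of discordant sex transcripts 4 were called at 3 h against 1 h.

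Leaving out each library in turn gave 1 to 2 members called in mutants at 1 h, with 2 without mutant 0 h female 2. It gave 3 to 7 at 1 h over both genotypes, and 0 to 2 at 3 h against 1 h, with 2 without the library labelled WT 1 h male 1 or without that labelled mutant 3 h female 2. Between the genotypes it gave 0 to 1, with 0 without WT 0 h male 2, WT 0 h female 1, mutant 0 h male 3, WT 1 h male 2, mutant 1 h female 1, mutant 1 h female 3, WT 3 h male 2, WT 3 h female 3, mutant 3 h male 1 or mutant 3 h female 1. Of the genes called at 1 h, Kmt2c was lost in 7 of 36 such fits (adjusted p up to 0.0636), Setd1b in 15 (up to 0.0826) and Phf2 in 25 (up to 0.108). The shares of all genes called in these fits are not given here, so the counts cannot be set against them. The cause of these changes was not tested.

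Replicate numbers were not treated as pairs, since in no comparison did every pair of deviations correlate above 0.1 (range -0.241 to 0.314). Between the genotypes at 0 h 4 of 6 pairs did, so this rule cannot exclude a weaker pairing. Sex and number as a replicate block moved no count past 1.5 times, and Phf2 at 1 h had a log2 fold change of 0.119 at an adjusted p of 0.0504 under the block.

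Counts over all genes moved more. At 1 h 208 genes were called in edgeR, 408 in DESeq2 and 407 without the 2 libraries, and at 3 h 434, 803 and, with the offset, 218. Between the genotypes 1.18% of genes were called in edgeR, 2.78% in DESeq2 and 2.58% without the 2 libraries, and at 3 h against 1 h the 3 counts were 39, 188 and 310. In mutants at 1 h edgeR called 54 and DESeq2 363.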
